A study of Mus musculus with 6 samples.

Results

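The Polycomb group genes Ezh1, Ezh2, Eed, Suz12, Jarid2, Cbx2, Cbx8, Bmi1 and Rnf2 were examined in RNA-seq of mouse small-intestinal organoids with and without induction of an active YAP transgene. Their rows were found by matching the Entrez gene IDs of the deposited count table to these symbols. They made up 9 of the 24594 gene rows, and all 9 were among the 12909 genes with enough reads to be tested. Of the 9, Ezh2 and Cbx2 fell with doxycycline, to 0.411 and 0.400 of their control levels, and none rose when all 6 libraries were used. Of all genes tested, 45.3% changed, 23.6% falling and 21.7% rising.

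Polycomb proteins keep genes silent through chromatin and work in a pair of multi-subunit assemblies. Polycomb repressive complex PRC2 methylates histone H3 at the lysine known as H3K27, with EZH1 or EZH2 as the enzyme, EED and SUZ12 as its obligate partners, and JARID2 as a subunit that helps to recruit it and stimulates its activity. PRC1 ubiquitinates histone H2A through a RING-type ligase such as RNF2 paired with a PCGF protein such as BMI1, and its canonical forms carry a CBX protein that reads the mark left by PRC2. In the intestine, Polycomb activity is known for holding developmental genes silent in crypt cells, and Bmi1 has long been used as a marker of crypt cells with stem cell capacity.

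The organoids were three-dimensional epithelial cultures grown in Matrigel from crypts of adult proximal small intestine, in medium with EGF, Noggin and R-spondin1. Every library, control or treated, came from the genotype TetON-hYAP/H2B-mCherry, in which doxycycline switches on human YAP in the constitutively active S127A form together with a red fluorescent histone. The 3 doxycycline libraries had 1 µg/ml of the drug for 48 h from passaging and the 3 control libraries had none. YAP is the transcriptional coactivator that the Hippo pathway holds back. The labels' protocol gives 1 individual per sample for adult crypts, but does not say which libraries, if any, share a line or an animal, so p-values measure the spread between these libraries. The driver of the doxycycline-responsive activator and the age of the animals are not given in the sources used here. Organoids without the transgene were not among those given the drug, so doxycycline and YAP cannot be told apart. In bulk RNA, fewer cells of a type and less RNA per cell also cannot be told apart.

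The libraries held 8533452 to 16803062 counted reads. The table has no row for the human transgene. Mouse Yap1 had 156 to 236 CPM (reads scaled to library size) in the controls and 142 to 149 CPM with doxycycline. Control replicate 3 stood apart from the other controls. Over all genes, its counts differed from those of control replicates 1 and 2 by a chi-square per degree of freedom of 144.2 and 122.3, against 3.82 between replicates 1 and 2 and 4.37 to 12.8 among the doxycycline libraries. Its log2 difference from the mean of the other controls ran with transcript length across 12626 genes (Spearman rho -0.39, across genes, which are not independent replicates). Results are therefore given with and without it. Epithelial markers such as Epcam and Vil1, 9 in number, summed to 5857 to 7026 CPM in controls and 21184 to 22719 CPM with doxycycline. Of these 9, 6 rose and 1 fell. Epcam did not pass (log2 -0.14, adjusted p = 0.745). The largest part of the sum with doxycycline was Krt19, at 1465 to 1738 CPM in controls and 8671 to 9226 CPM with doxycycline. None of 9 mesenchymal markers had enough reads to be tested, with a summed level of at most 1.01 CPM and 3 of them at 0 in every library. The 9 immune markers summed to 22.8 to 45.7 CPM in controls and 29.8 to 31.8 CPM with doxycycline, with 3 at 0 throughout. Most of this sum was Csf1r, at 18.6 to 40.7 CPM in controls and 24.7 to 25.7 CPM with doxycycline, while Ptprc reached at most 0.141 CPM. The 6 endothelial markers summed to at most 2.76 CPM, with 1 at 0.

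Ezh2 and Ezh1 encode alternative catalytic subunits of PRC2 and lie on chromosomes 6 and 11, both on the minus strand. Ezh2 spans chr6:47530274-47595270 and Ezh1 chr11:101191115-101226463 in GRCm38. The sequences around their start sites are shown because the levels of the pair differed with doxycycline. Each runs 5′ to 3′ on the gene's own strand, from 170 bases before the RefSeq start site to 30 bases from it (RefSeq, GRCm38.p6), at chr6:47595001-47595200 for Ezh2 and chr11:101226434-101226633 for Ezh1. Capitals mark a match to any of the E2F-type words TTTCCCGC, TTTCGCGC, TTTGCCGC and TTTGGCGC, searched on both strands.
Ezh2: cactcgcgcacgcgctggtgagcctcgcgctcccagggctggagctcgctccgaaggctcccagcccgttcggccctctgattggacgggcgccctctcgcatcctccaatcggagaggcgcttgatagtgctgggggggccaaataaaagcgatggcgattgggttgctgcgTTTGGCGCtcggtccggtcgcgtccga
Ezh1: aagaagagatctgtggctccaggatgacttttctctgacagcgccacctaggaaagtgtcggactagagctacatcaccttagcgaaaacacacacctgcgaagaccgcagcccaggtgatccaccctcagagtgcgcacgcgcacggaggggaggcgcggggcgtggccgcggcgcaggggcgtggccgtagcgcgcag

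The E2F-type word of Ezh2 began 3 bases downstream of its start-site base. The same words occurred in 744 of 32851 mouse promoter windows of 300 bases, or 2.26%. RefSeq windows were matched for 8 of the 9 genes, all except Cbx2, and for 33 of 41 other Polycomb genes. Suz12 was the only other of the 8 with an E2F-type word, beginning 219 bases before its start site on the gene's strand at chr11:79992876-79992905, and Phf19 was the only one of the 33, with the word on the reverse strand 208 bases before its start site at chr2:34914166-34914195. The TEAD-type word GGAATG, named after the DNA-binding partners of YAP, was found in 14.7% of all windows on either strand. Among the 8 it occurred in Bmi1 alone, 228 bases before the start site at chr2:18676779-18676806 on the plus strand, and among the 33 in Aebp2, Pcgf2, Scmh1 and Bcor. No window of these genes held both kinds of word. These matches are shown in capitals with their neighbouring bases, on the strand of each gene.
Suz12: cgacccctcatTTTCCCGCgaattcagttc
Phf19: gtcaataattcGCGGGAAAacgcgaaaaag
Bmi1: gccgcccttaaGGAATGaggggagcacg
A match of letters is a description of the window. Ezh2 and Phf19 fell with doxycycline, while Suz12 and Bmi1 did not pass the test with all 6 libraries.

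Ezh2, the PRC2 enzyme typical of dividing cells, was measured at 15.0, 17.4 and 20.5 CPM in control replicates 1, 2 and 3 and at 6.88, 6.57 and 8.20 CPM with doxycycline. Every doxycycline library lay below every control library. The gene fell by 1.28 on the log2 scale (SE 0.22, 95% interval -1.79 to -0.78; adjusted p = 0.00313, edgeR), from 17.6 ± 2.79 to 7.21 ± 0.865 CPM (SD, n = 3 in each group). These values rest on 204 to 256 reads per control library and 68 to 116 per doxycycline library. Without control replicate 3 the log2 change was -1.14. Of the exonic bases of Ezh2, 174 are shared with the lincRNA Gm26625 on the opposite strand. The use of strand in counting is not given in the sources used here.

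Ezh1, the PRC2 enzyme typical of resting and differentiated cells, gave 47.1, 44.2 and 52.2 CPM in the controls and 59.1, 53.8 and 59.9 CPM with doxycycline. All doxycycline libraries were higher than all controls, by a narrow margin. The difference did not pass the test (log2 0.27, SE 0.15, 95% interval -0.08 to 0.62, adjusted p = 0.182). It passed without control replicate 3 (log2 0.35, adjusted p = 0.00400). With total counts as the only scaling its sign turned to -0.18.

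The count ratio of Ezh2 to Ezh1 within a library does not depend on how libraries are scaled. It was 0.318, 0.394 and 0.394 in the controls and 0.117, 0.123 and 0.137 with doxycycline. The groups were far apart, and the mean ratio was 2.92-fold lower with doxycycline (log2 -1.55, from -1.45 ± 0.18 to -2.99 ± 0.12, SD, n = 3). The exact two-sided permutation p was 0.1, the smallest that 3 libraries against 3 can give, or 0.2 after adjustment over the 4 ratios examined. Per kilobase of exon, Ezh2 made up 26.1, 30.5 and 30.5% of the summed Ezh1 and Ezh2 level in the controls and 11.5, 12.0 and 13.2% with doxycycline. In every library Ezh1 was thus the higher of the pair.

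**Figure D1:**
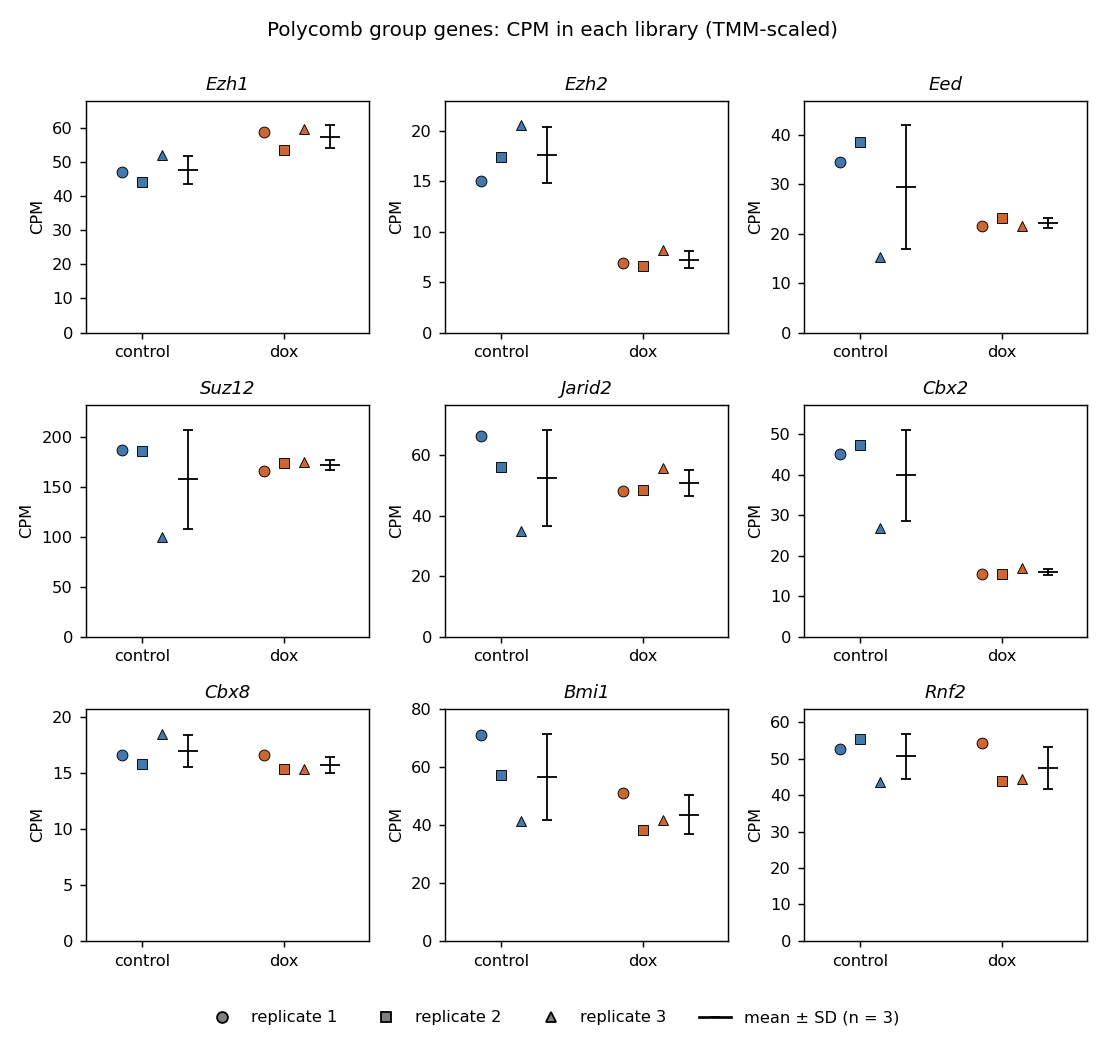
Level of each of the 9 Polycomb group genes in each library, in CPM scaled by TMM (vertical axis, from 0), for control and doxycycline (dox) organoids. Symbols mark the replicate number and bars the mean ± SD of 3 libraries. Ezh2 and Cbx2 sit lower in all doxycycline libraries, and control replicate 3 is the lowest control for Eed, Suz12, Jarid2, Cbx2, Bmi1 and Rnf2.

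The partners of the enzyme gave no change that passed the test with all 6 libraries. Eed, the subunit that binds the methyl mark and stimulates the enzyme, was at 34.4, 38.6 and 15.2 CPM in the controls and 21.5, 23.2 and 21.6 CPM with doxycycline. The doxycycline libraries fell between control replicate 3 and the other controls. The log2 difference was -0.41 (SE 0.33, 95% interval -1.21 to 0.38, adjusted p = 0.350). With control replicate 3 left out it was -0.71 and passed (SE 0.12, adjusted p = 2.87e-05). Eed shares 261 exonic bases with the transcript E230029C05Rik on the opposite strand.

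Suz12, the scaffold that holds the PRC2 core together, was at 187, 186 and 100.4 CPM in the controls and 167, 175 and 175 CPM with doxycycline. Control replicate 3 was again the low value and the ranges overlapped. The log2 difference was 0.12 (SE 0.26, 95% interval -0.48 to 0.73, adjusted p = 0.722). It was -0.10 without control replicate 3 (adjusted p = 0.223) and -0.32 with total counts, so no direction can be given.

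Jarid2 gave 66.4, 56.0 and 35.0 CPM in the controls and 48.1, 48.6 and 55.6 CPM with doxycycline. The doxycycline libraries lay inside the range of the controls (log2 -0.05, SE 0.25, 95% interval -0.63 to 0.54, adjusted p = 0.891). Without control replicate 3 the log2 difference was -0.25 (adjusted p = 0.0361), and without control replicate 1 it was 0.16 and did not pass. The sign for Jarid2 thus turned with the choice of control libraries.

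Of the 4 PRC1 genes among the 9, Cbx2 alone fell. CBX2 is a chromodomain subunit that compacts chromatin. The gene was at 45.2, 47.4 and 26.8 CPM in the controls and at 15.4, 15.5 and 16.9 CPM with doxycycline. The doxycycline libraries were tightly grouped and all below the lowest control. The gene fell by 1.32 on the log2 scale (SE 0.25, 95% interval -1.90 to -0.74, adjusted p = 0.00510), from 39.8 ± 11.3 to 15.9 ± 0.832 CPM (SD, n = 3). Without control replicate 3 the log2 change was -1.52 (adjusted p = 6.87e-10).

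Cbx8, another chromodomain subunit, gave 16.6, 15.8 and 18.5 CPM in the controls and 16.6, 15.4 and 15.3 CPM with doxycycline. The ranges overlapped, and the log2 difference of -0.11 did not pass (SE 0.17, 95% interval -0.51 to 0.29, adjusted p = 0.641). Cbx2 and Cbx8 are neighbours on chromosome 11, at chr11:119023019-119031275 on the plus strand and chr11:119036303-119040913 on the minus strand, with 5027 bases between them. The count ratio of Cbx8 to Cbx2 was 0.368, 0.333 and 0.692 in the controls and 1.08, 0.988 and 0.908 with doxycycline. The ratio was higher in every doxycycline library than in any control, by 1.17 on the log2 scale (exact permutation p = 0.1, adjusted 0.2), and by 1.50 without control replicate 3.

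Bmi1, also known as Pcgf4, gave 71.2, 57.1 and 41.5 CPM in the controls and 51.1, 38.1 and 41.5 CPM with doxycycline. The ranges overlapped because control replicate 3 was as low as the doxycycline libraries. The log2 difference was -0.38 (SE 0.24, 95% interval -0.94 to 0.18, adjusted p = 0.229), and without control replicate 3 it was -0.55 and passed (adjusted p = 9.09e-04). Bmi1 lies at chr2:18677018-18686629, 786 bases from Commd3.

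Rnf2, which encodes the RING1B ligase, gave 52.8, 55.5 and 43.7 CPM in the controls and 54.2, 43.8 and 44.5 CPM with doxycycline. Both groups covered nearly the same range. The log2 difference was -0.09 (SE 0.17, 95% interval -0.50 to 0.31, adjusted p = 0.685). Rnf2 shares 158 exonic bases with Trmt1l on the opposite strand.

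Both PRC1 genes were also set against their closest paralogues in the same library. The count ratio of Rnf2 to Ring1, which encodes the alternative ligase, ran from 2.56 to 4.73 in the controls and from 4.33 to 4.76 with doxycycline (log2 difference 0.34, exact permutation p = 0.3, adjusted 0.4). The ratio of Bmi1 to Pcgf2, which encodes the paralogue MEL18, was 2.60, 2.16 and 0.908 in the controls and 1.46, 1.21 and 1.33 with doxycycline. This log2 difference was -0.37 (exact permutation p = 0.4, adjusted 0.4), and -0.83 without control replicate 3. The groups overlapped for both ratios.

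**Figure D2:**
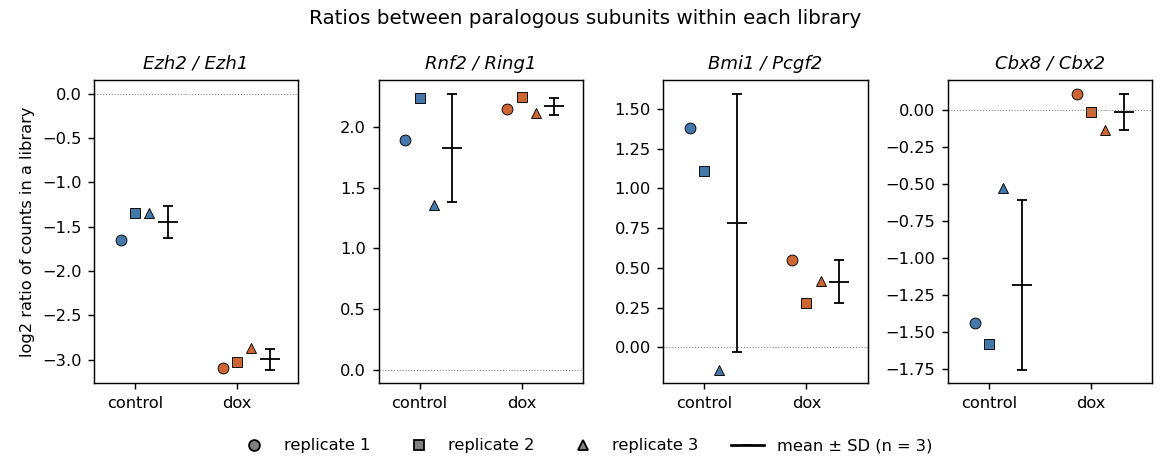
Log2 of the ratio of read counts of 2 genes in the same library (vertical axes, not starting at a common value), for control and doxycycline (dox) organoids; bars are the mean ± SD of 3 libraries. The Ezh2 to Ezh1 ratio is lower and the Cbx8 to Cbx2 ratio higher in all doxycycline libraries, while the other 2 ratios overlap between the groups.

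In all, 2 of the 9 genes changed with doxycycline and both fell. Set beside the 45.3% of all 12909 genes that changed, this is a smaller share. For 3 of the 9 (Ezh1, Ezh2 and Cbx2) no control library overlapped with the doxycycline libraries, against 61.3% of all genes. The median log2 difference was -0.11 for the 9 and -0.08 for all genes. Without control replicate 3, 5 of the 9 fell (Ezh2, Eed, Jarid2, Cbx2 and Bmi1) and Ezh1 rose. With those 5 libraries 69.9% of 13278 genes changed and 35.1% fell. The calls for Ezh2 and Cbx2 were made under all 13 alternative analyses run for each, with an adjusted p of at most 0.0222 for Ezh2 and 0.0302 for Cbx2.

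Levels of different genes were compared per kilobase of annotated exon. In control organoids Suz12 was the highest of the 9 at 31.9 ± 10.1 CPM per kb, followed by Bmi1 at 14.2 ± 3.74, Rnf2 at 12.3 ± 1.50 and Cbx2 at 9.34 ± 2.66 CPM per kb (SD, n = 3). Below them came Eed at 7.68 ± 3.26, Ezh1 at 6.43 ± 0.548, Jarid2 at 5.40 ± 1.64, Cbx8 at 4.62 ± 0.382 and Ezh2 at 2.64 ± 0.417 CPM per kb. Only the top and the bottom of this order stood clear of their neighbours: the libraries of Suz12 did not overlap with those of Bmi1, nor those of Cbx8 with those of Ezh2. All pairs of neighbours from Bmi1 to Cbx8 overlapped. With doxycycline Suz12 remained highest at 34.8 ± 0.965 and Ezh2 lowest at 1.08 ± 0.130 CPM per kb. Cbx2 stood next to last at 3.74 ± 0.195 CPM per kb, below Cbx8 at 4.29 ± 0.194 in every library. Ezh1, at 7.74 ± 0.446, stood above Eed, at 5.78 ± 0.248 CPM per kb, in every library.

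The other 41 Polycomb genes come from lists of PRC2, PRC1, the histone H2A deubiquitinase PR-DUB and the H3K27 demethylases. Of these, 37 were tested, of which 3 rose, 11 fell and 23 did not pass, with a median log2 difference of -0.12. The called genes were 37.8% of the 37, against 45.3% of all genes tested. Scml2, Asxl3, Ezhip and Uty had too few reads to be tested, and the last pair had 0 in every library. When control replicate 3 was left out, 10 rose and 17 fell, or 73% of the 37 against 69.9% of all genes tested.

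Of the remaining PRC2 genes, both histone chaperone subunits of the core fell. Rbbp4 went from 72.5, 75.2 and 142 CPM to 39.3, 40.1 and 36.3 CPM (log2 -1.32, SE 0.29, adjusted p = 0.00932), and Rbbp7 from 124, 138 and 189 CPM to 58.3, 60.6 and 61.2 CPM (log2 -1.32, SE 0.20, adjusted p = 0.00202). Both encode proteins that are also part of other chromatin complexes. No doxycycline library reached the lowest control for either gene. Without control replicate 3 the log2 changes were -0.93 for Rbbp4 and -1.11 for Rbbp7. Rbbp4 shares exonic bases with Sync and the lincRNA Gm26722 on the opposite strand, 782 and 796 in number.

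The accessory PRC2 genes moved in both directions. Mtf2 and Phf19 encode Polycomb-like proteins that bring PRC2 to CpG-rich DNA. Mtf2 fell from 45.4, 42.8 and 28.2 CPM to 17.0, 19.1 and 16.3 CPM (log2 -1.15, SE 0.22, adjusted p = 0.00576), and Phf19 from 9.12, 10.2 and 7.25 CPM to 2.93, 2.13 and 2.69 CPM (log2 -1.78, SE 0.26, adjusted p = 0.00178). Phf1, the remaining Polycomb-like gene, did not pass (log2 0.85, adjusted p = 0.0670) and shares 1370 exonic bases with Cuta on the opposite strand. Without control replicate 3 its log2 difference was 1.26 and passed (adjusted p = 1.25e-05).

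Epop, whose product links PRC2 to the elongin BC complex, had the largest log2 change of the 46 Polycomb genes tested. It was at 60.4, 62.4 and 49.3 CPM in the controls and at 427, 411 and 396 CPM with doxycycline. The groups were far apart and the spread within each was small. The gene rose by a log2 of 2.84 (SE 0.17, 95% interval 2.44 to 3.24, adjusted p = 7.66e-05), or 7.16-fold. Epop lies at chr11:97627387-97629716 on the minus strand.

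**Figure D3:**
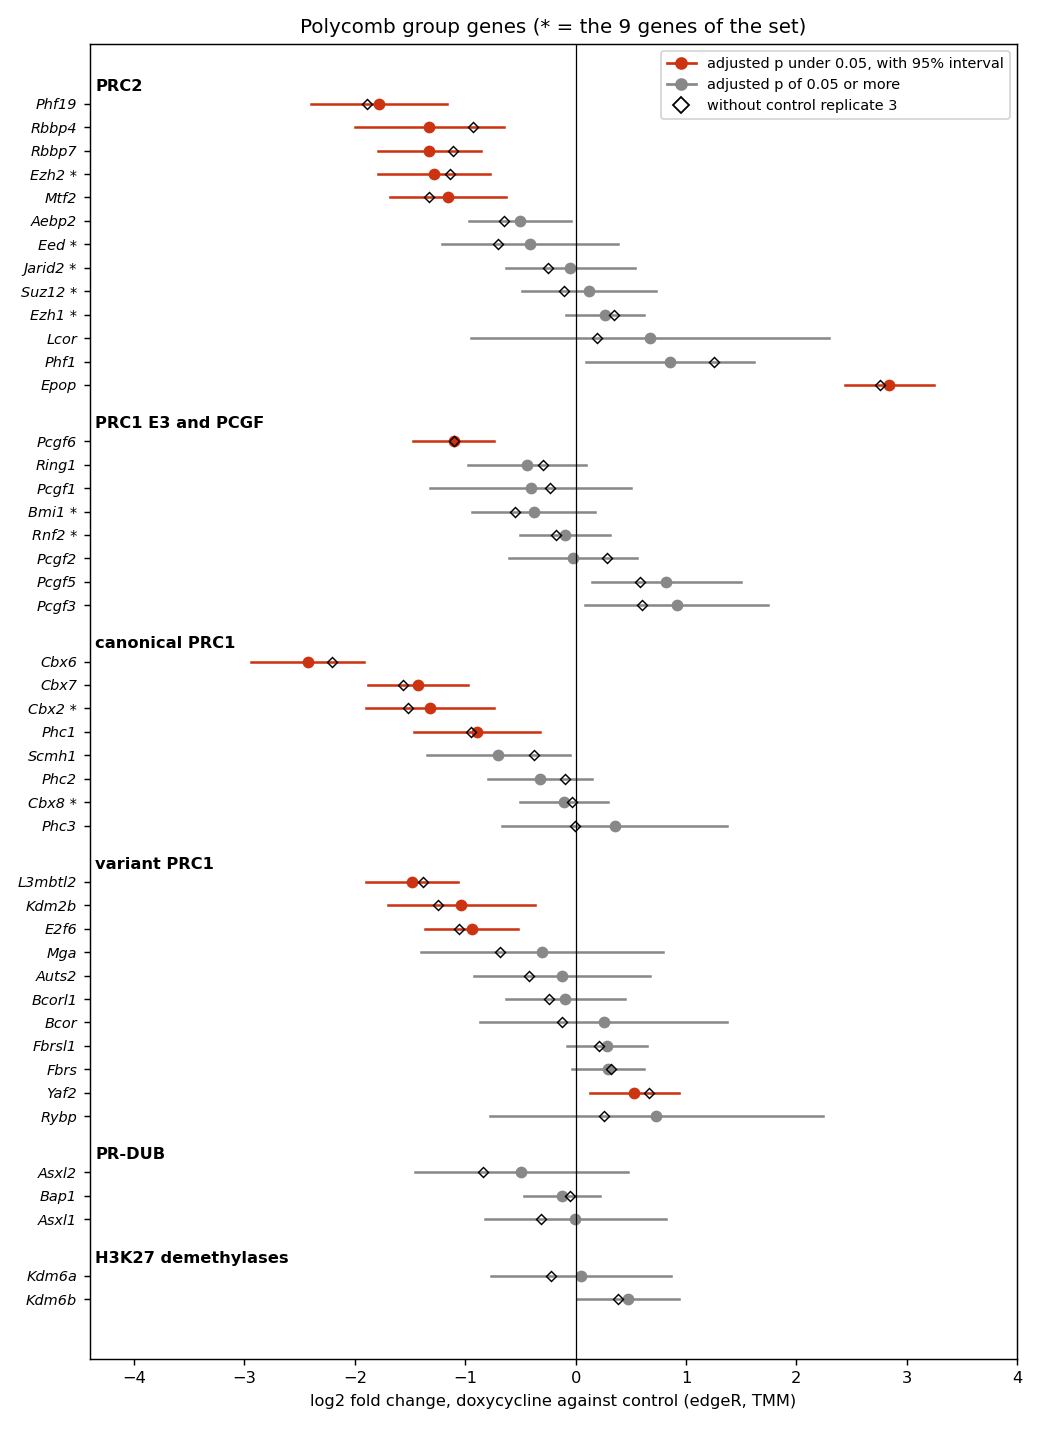
Log2 fold change of doxycycline against control (horizontal axis) for Polycomb genes tested, grouped by complex and ordered within each group. Circles and bars are the estimate from 6 libraries and its 95% interval, red where the adjusted p was under 0.05; open diamonds are the estimate without control replicate 3. Epop is highest at 2.84 and Cbx6 lowest at -2.43, and no PR-DUB or demethylase gene passed the test.

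Cbx2 was not the only Cbx gene that fell. Cbx6 had the largest fall, from 156, 144 and 221 CPM to 34.2, 29.2 and 33.3 CPM (log2 -2.43, SE 0.22, adjusted p = 2.74e-04). Cbx7, which encodes the Cbx protein typical of pluripotent stem cells, fell from 111, 103 and 75.4 CPM to 33.7, 39.2 and 34.6 CPM (log2 -1.43, SE 0.19, adjusted p = 0.00133). Every doxycycline library was far below every control for both. Cbx6 shares 563 exonic bases with Npcd on the same strand, and reads there could have been counted for either gene.

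**Figure D4:**
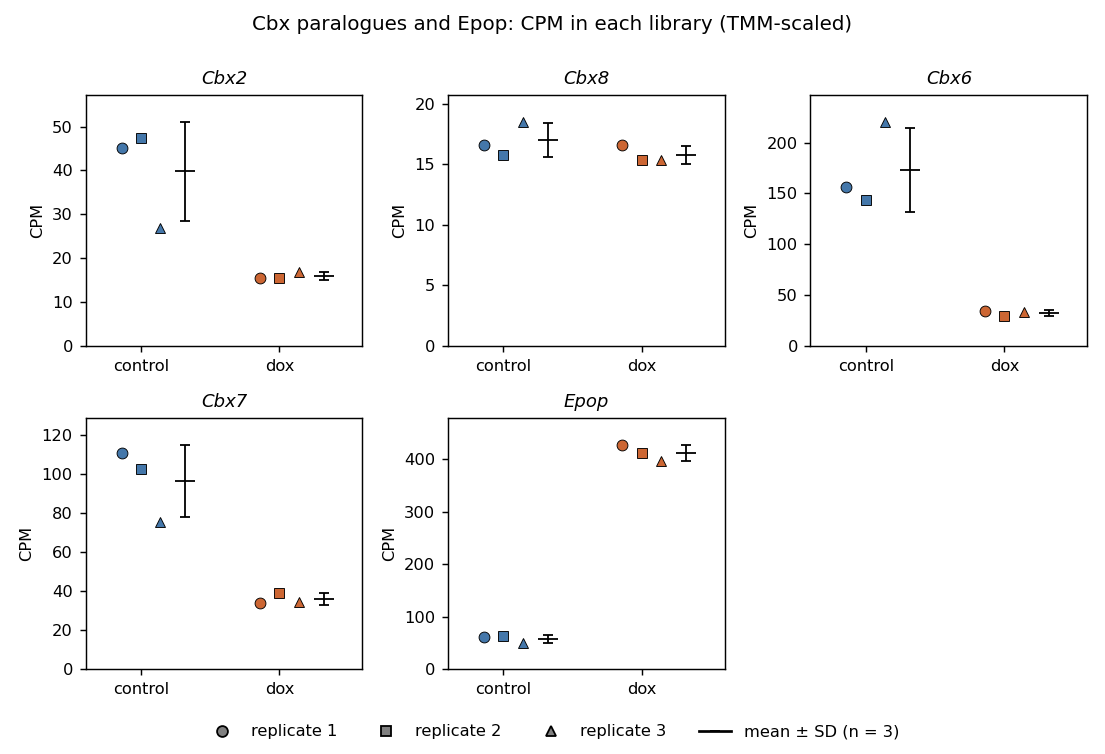
Level of Cbx2, Cbx8, Cbx6, Cbx7 and Epop in each library, in CPM scaled by TMM (vertical axes, from 0), with the mean ± SD of 3 libraries. Cbx2, Cbx6 and Cbx7 are lower and Epop higher in all doxycycline libraries, and Cbx8 overlaps between the groups.

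The other canonical PRC1 genes encode the Polyhomeotic proteins and the SCM-type protein Scmh1. Phc1 fell from 12.6, 10.4 and 9.86 CPM to 4.96, 7.31 and 5.44 CPM (log2 -0.89, adjusted p = 0.0210). The call for Phc1 was lost when control replicate 1, or either of doxycycline replicates 1 and 3, was left out (log2 -0.82 to -0.77, adjusted p = 0.0720 to 0.0925) and with the replicate block (adjusted p = 0.0649). Phc2, Phc3 and Scmh1 did not pass, with log2 differences of -0.32, 0.36 and -0.70.

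Of the 6 remaining genes for the ligase and its PCGF partners, Pcgf6 fell and 5 did not pass. PCGF6 belongs to a variant PRC1 that represses germline genes. Pcgf6 went from 55.6, 52.3 and 52.0 CPM to 22.6, 24.0 and 27.8 CPM (log2 -1.11, SE 0.16, adjusted p = 0.00150). Here control replicate 3 was like the other controls. Pcgf3 and Pcgf5 were higher in every doxycycline library without passing (log2 0.92 and 0.82, adjusted p = 0.0704 and 0.0518), and passed without control replicate 3 (log2 0.60 and 0.58, adjusted p = 5.80e-07 and 1.30e-04).

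Among 11 genes of variant PRC1, 3 fell and 1 rose. L3mbtl2 fell from 42.3, 46.0 and 52.6 CPM to 19.2, 15.6 and 15.5 CPM (log2 -1.48, adjusted p = 7.72e-04), and E2f6 from 59.7, 67.1 and 47.4 CPM to 31.9, 30.7 and 28.1 CPM (log2 -0.94, adjusted p = 0.00529). Their products, like PCGF6, belong to the variant PRC1 that contains E2F6. L3mbtl2 shares 1023 exonic bases with Chadl on the opposite strand.

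Kdm2b, whose product brings a variant PRC1 to unmethylated CpG islands, fell from 21.4, 23.2 and 12.9 CPM to 11.3, 8.60 and 8.27 CPM (log2 -1.03, adjusted p = 0.0220). Its call was lost without control replicate 1, control replicate 2, doxycycline replicate 2 or doxycycline replicate 3 (log2 -0.97 to -0.87, adjusted p = 0.0609 to 0.0925). Yaf2 rose from 18.8, 17.9 and 23.3 CPM to 30.2, 27.8 and 28.6 CPM (log2 0.53, adjusted p = 0.0401). This call was lost in 8 of 13 alternatives, among them total counts (log2 0.09, adjusted p = 0.686), the replicate block (adjusted p = 0.108) and 5 of the 6 analyses without 1 library, all except that without control replicate 3 (adjusted p = 0.104 to 0.132).

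Among the genes whose products undo the Polycomb marks, none of 3 PR-DUB genes and neither of 2 demethylase genes passed. Bap1, the deubiquitinase, had a log2 difference of -0.12 (95% interval -0.47 to 0.22). Kdm6a and Kdm6b, which remove methyl groups from H3K27, had log2 differences of 0.05 (95% interval -0.77 to 0.86) and 0.47 (95% interval 0.01 to 0.94, adjusted p = 0.0873).

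Trithorax proteins oppose Polycomb silencing by methylating histone H3 at lysine 4 among other activities. Of 12 Trithorax group genes tested, 4 fell and none rose, with a median log2 difference of -0.26. These are 33.3% of the 12, while 45.3% of all genes changed and 23.6% fell. Without control replicate 3, 8 of the 12 fell and none rose, or 66.7%, while 69.9% of all genes changed and 35.1% fell. Wdr5, a core subunit shared by these methyltransferases, fell from 119, 114 and 124 CPM to 62.7, 55.2 and 53.1 CPM (log2 -1.06, adjusted p = 0.00146), and the methyltransferase gene Setd1a from 111, 113 and 116 CPM to 66.4, 66.3 and 66.9 CPM (log2 -0.77, adjusted p = 0.00376). Ash2l and Dpy30 also fell (log2 -0.83 and -2.16, adjusted p = 0.0200 and 0.0216). Both of these calls were lost without any 1 of the doxycycline libraries (adjusted p = 0.0614 to 0.0858). That of Dpy30 was also lost with the replicate block (adjusted p = 0.0565), and its log2 change was -1.24 without control replicate 3.

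Hox genes, which give cells their position along the body axis, are the best known Polycomb targets. Of 39, 16 had no reads in any library and 7 had enough to be tested. Hoxa3 fell from 7.02, 9.31 and 3.52 CPM to 2.02, 2.13 and 2.40 CPM (log2 -1.60, adjusted p = 0.0150), and Hoxa7 from 2.69, 3.31 and 3.72 CPM to 1.01, 1.02 and 0.212 CPM (log2 -2.15, adjusted p = 0.0157). The call for Hoxa3 was lost without any 1 of the doxycycline libraries (adjusted p = 0.0532 to 0.0613). Hoxa4 fell at the lowest levels, 1.62 to 1.81 CPM against 0.707 to 0.925 CPM (log2 -1.07, adjusted p = 0.0336), and its call was lost in 9 of 13 alternatives, including each analysis without 1 library (adjusted p = 0.0627 to 0.137).

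Markers of the cell cycle moved with Ezh2 and Cbx2. Of 18 S phase genes, such as the Mcm helicase genes, 16 fell and none rose, and their summed level went from 919 to 1372 CPM in the controls to 334 to 395 CPM with doxycycline. Of 14 genes of G2 and mitosis, such as Top2a, 12 fell and none rose, with sums of 1250 to 1761 CPM and 452 to 486 CPM. Mki67 was among the 2 that did not pass with all 6 libraries (log2 -1.47, adjusted p = 0.0727). It was at 885, 810 and 161 CPM in control replicates 1, 2 and 3 and at 186 to 247 CPM with doxycycline. Mki67 is included in these sums. The called genes were 88.9% of the S phase list and 85.7% of the G2 and mitosis list, while 23.6% of all genes tested fell. Without control replicate 3, 17 of the 18 and all 14 fell, while 35.1% of all genes fell. No gene of either list was at 0 in all libraries.

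Cell type markers moved as well. Of 14 stem cell markers 13 fell, with sums of 5590 to 7600 CPM in controls and 432 to 461 CPM with doxycycline, and all 6 Paneth cell markers fell, from 2301 to 4708 CPM to 34.1 to 39.1 CPM. Of 11 enterocyte markers 9 rose, from 2595 to 4246 CPM to 19795 to 21043 CPM. Of all genes tested, 23.6% fell and 21.7% rose. Without control replicate 3, 13 stem cell markers and all 6 Paneth cell markers fell, and all 11 enterocyte markers rose. The part of these cell cycle and cell type differences in the levels of the Polycomb genes was not tested.

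The genes whose levels ran most closely with each Polycomb gene over the 6 libraries were taken from 10431 genes averaging 5 CPM or more, by Pearson's r of log2 CPM. All such values share the same 6 libraries, including control replicate 3. For Ezh2 they were Eif4enif1, Rrnad1 and Fam53a (r = 0.9985, 0.998 and 0.9977), and for Cbx2 they were Tmpo, Rsrc1 and Mastl (r = 0.9999, 0.9995 and 0.9989). For Ezh1 they were Trdmt1, Nmnat1 and Sbf2 (r = 0.9906, 0.9894 and 0.9887). The mean levels of the 6 genes named for Ezh2 and Cbx2 were lower with doxycycline, and no gene was among the first 3 for more than 1 of the 9.

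Suz12 was most like the long non-coding RNA Norad, Ddx6 and 4932702P03Rik (r = 0.9992 to 0.9993), Eed like Atf2, Ddx24 and Rnf141 (r = 0.9953 to 0.9966), and Jarid2 like Zfp236, Chd2 and Fars2 (r = 0.9909 to 0.9926). For Suz12, Eed and Jarid2, control replicate 3 had the lowest level of all libraries. Cbx8 was most like Ccdc174, Zbtb17 and Iars (r = 0.9857 to 0.9862), Bmi1 like Zcchc4, Rprd1b and 4930523C07Rik (r = 0.9751 to 0.9764), and Rnf2 like Pkmyt1, Spop and Gm2245 (r = 0.9728 to 0.9868).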

How the data were processed

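RNA-seq libraries were made with a TruSeq RNA kit from total RNA and sequenced on an Illumina NextSeq, per the labels' protocols. The authors deposited whole-number read counts per Entrez gene ID for 6 libraries. Per the submitters' processing notes the build was mm10. No aligner, counter, annotation or use of strand is given in the sources used here, which leaves reads of overlapping genes uncertain. RefSeq GRCm38.p6 gave symbols for 24570 of 24594 IDs. Exon lengths came from the GENCODE annotation of GRCm38, as the union of all transcripts.

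Libraries were grouped by the treatment in the labels. Counts passed edgeR 4.0.16 (R 4.3.3) filtering by group, which left 12909 genes, were scaled by TMM and tested with the robust quasi-likelihood F-test, p-values being adjusted over those genes by Benjamini-Hochberg and called under 0.05. CPM use TMM-scaled library sizes, in which 1 read is worth 0.058 to 0.10 CPM. "Rose" and "fell" mark called genes. The test was checked on simulated counts of 12909 genes with the same dispersion for all genes and libraries. It recovered 86.5% of 89 genes with a log2 change of 1 and 100% of 111 with a log2 change of 2. Of its calls 2.63% were false. The simulation held no library that stood apart as control replicate 3 does and far fewer changed genes, so it does not cover these features of the data. Within-library count ratios (0.5 added to each count) were compared by exact permutation of the libraries.

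The 9 genes and all lists were chosen with earlier results of these data known. The genes named were the 9, called genes of the Polycomb and Trithorax lists, up to 4 Hox genes with the smallest adjusted p, and the 3 genes most like each of the 9. Some further genes were given values after they were seen. These were Phf1, Phc2, Phc3, Scmh1, Pcgf3, Pcgf5, Bap1, Kdm6a, Kdm6b and Yap1. Alternatives were RLE factors, total counts, testing every gene with a read (no low-count filter), requiring 10 counts in 3 libraries, DESeq2 1.42.0, limma-voom (limma 3.58.1), the replicate number as a block and each library left out in turn. Some genes of the lists stayed in the counts and fits but are not reported here one by one.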

Additional observations from a re-analysis of the deposited data

How the results depend on the processing

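With TMM the median log2 difference of all genes was -0.08 and 47.9% of the 5850 calls were higher; with total counts as the only scaling these were -0.52 and 25.4% of 6878. Directions are given on the TMM scale. With total counts 5 of the 9 Polycomb genes passed, all lower (Ezh2, Cbx2, Cbx8, Bmi1 and Rnf2), and the sign turned for Ezh1 (log2 -0.18) and Suz12 (-0.32). Leaving out 1 library at a time gave 3836 to 9286 genes, 2 to 6 of the 9 Polycomb genes and 10 to 27 of the other 37. The highest of each came without control replicate 3, and the lowest numbers of genes without doxycycline replicate 2 (3862) or 3 (3836). Over these 6 analyses the log2 difference ran from -0.10 to 0.27 for Suz12 and from -0.25 to 0.16 for Jarid2. The cause was not tested. Deviations of same-numbered libraries from their group means had correlations of -0.34, 0.15 and -0.22. Control replicate 3 dominates the deviations of the controls, so these values cannot show whether the numbers pair the libraries. With the replicate block 4509 genes, 2 of the 9 and 12 of the other Polycomb genes passed. Over their 13 alternatives, the 9 genes kept direction and side of the threshold in 105 of 117 comparisons. Depth limits the genes with few reads, among them Ezh2 (68 reads at the lowest), Phf19 and the Hox genes.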
